A study of Mus musculus with 6 samples.

Results

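Tfdp2 was described here together with the genes of the E2F pathway that it belongs to: the DP genes Tfdp1 and Tfdp2, the E2F genes E2f1, E2f3, E2f4, E2f5, E2f7 and E2f8, and the pocket protein genes Rb1 and Rbl1. These 10 genes were taken by symbol from a table of 52550 genes, and all 10 were among the 15778 genes with enough counts to test. Tfdp2 was picked because it differed between the groups in these same libraries, so its gene and transcript values are given as a description with no test. The other 9 were listed as its partners and relatives.

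E2F transcription factors control the genes of DNA replication and cell division. Most of them bind DNA only as a pair with a DP protein, made from Tfdp1 or Tfdp2, whereas E2F7 and E2F8 bind without one and act as repressors. Pocket proteins, such as RB1 and the RBL1 product p107, hold E2F and DP pairs inactive until cyclin-dependent kinases phosphorylate them. In the epidermis E2F activity belongs mainly to the dividing cells of the basal layer.

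RNA-seq libraries were made from keratinocytes, the main cells of the epidermis, isolated from the skin of wild-type C57BL/6 mice at 0 to 2 days after birth and grown for 2 days. One group of 3 libraries came from cells exposed for 12 h to recombinant IL-33, an epithelial alarm cytokine related to IL-1, and the other group of 3 came from untreated cells. The labels give no dose and do not say whether libraries are separate cultures or animals, so every p-value reflects the spread among these 6 libraries, possibly technical spread alone.

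Totals were 43860488, 34188173 and 44255925 deposited counts in the IL-33 libraries, against 44692876, 41456441 and 45266298 in the untreated libraries. A sequenced fragment was taken as about 4 deposited counts, an estimate from where low values pile up. By it the shallowest library, IL-33 replicate 2, held about 8547043 fragments. The summed level of 7 basal keratinocyte markers was 35346 to 37969 CPM (counts scaled to the library total) in IL-33 libraries and 35203 to 36290 CPM in untreated libraries. That of 6 suprabasal markers was 30.8 to 36.6 CPM with IL-33 and 33.0 to 38.2 CPM without, so both groups carried a basal keratinocyte profile. Melanocyte markers summed to 1112 to 1206 CPM with IL-33 and 1111 to 1163 CPM in untreated cells. Fibroblast markers summed to 26.5 to 31.0 CPM with IL-33 and 29.7 to 38.1 CPM without. Endothelial markers summed to 16.3 to 17.1 CPM with IL-33 and 13.5 to 19.8 CPM without, and Emcn was at 0. Leukocyte markers summed to 33.4 to 33.5 CPM with IL-33 and 29.0 to 34.9 CPM without, and 6 of the 10 (Cd3e, Cd207, Itgam, Tpsb2, Mcpt4 and Cpa3) were at 0 in every library. No marker that could be tested passed the threshold, the sums overlapped between the groups in all 6 lists, and their part in the results was not tested.

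Tfdp2 lies on the plus strand of chromosome 9 (GRCm38, 96196275 to 96323646, ENSMUSG00000032411.15), and its 16 annotated transcripts start in separate places. The 7 that begin farthest upstream include Tfdp2-201, and 6 others begin 62.4 to 63.0 kb further in. RefSeq (GRCm38.p6) gave windows for 2 inner starts of Tfdp2. It gave none for the upstream start, whose forms held a mean of 89.3% of the gene's counts with IL-33 and 88.8% without. The 250 bases before each inner start are printed with those before the outer start of Tfdp1 because these genes supply the DP partner of E2F. Capitals mark an E2F motif on either strand: one of the forms TTTCCCGC, TTTCGCGC, TTTGCCGC and TTTGGCGC, or the first 7 letters of one of them.
Tfdp2 inner start, chr9:96258455-96258704, plus strand: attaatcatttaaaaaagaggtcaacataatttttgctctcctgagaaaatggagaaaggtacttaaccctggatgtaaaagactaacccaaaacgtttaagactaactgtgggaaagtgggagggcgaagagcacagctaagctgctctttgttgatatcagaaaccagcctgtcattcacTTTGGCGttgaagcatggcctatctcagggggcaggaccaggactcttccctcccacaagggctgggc
Tfdp2 second inner start, chr9:96258998-96259247, plus strand: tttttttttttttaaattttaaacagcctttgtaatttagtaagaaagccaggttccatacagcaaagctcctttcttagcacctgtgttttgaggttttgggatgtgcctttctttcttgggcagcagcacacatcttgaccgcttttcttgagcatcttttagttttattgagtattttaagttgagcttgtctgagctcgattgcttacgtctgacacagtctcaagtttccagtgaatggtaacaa
Tfdp1, chr8:13338501-13338750, plus strand: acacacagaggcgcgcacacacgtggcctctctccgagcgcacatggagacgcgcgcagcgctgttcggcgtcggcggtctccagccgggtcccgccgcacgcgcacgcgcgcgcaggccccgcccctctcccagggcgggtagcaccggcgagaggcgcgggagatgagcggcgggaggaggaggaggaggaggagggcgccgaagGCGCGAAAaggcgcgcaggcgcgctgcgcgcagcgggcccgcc

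The Tfdp1 window had 76.8% G and C and 42 CpG pairs, and held the E2F site GCGCGAAA, the reverse strand of TTTCGCGC, 43 bases before the start. The inner Tfdp2 windows had 45.6% and 37.6% G and C with 3 CpG pairs each, against a median of 52.4% over all 32851 windows of the same length. They do not describe the upstream start. Neither held a full 8-letter form. The first held the 7-letter TTTGGCG 68 bases before the start. Full forms were present in 1.86% of all windows and the 7-letter ones, which include them, in 5.51%. A window was found for 7 of the 10 genes, 10 windows in all, and 4 genes (Tfdp1, Rbl1, E2f3 and E2f7) had a full form in at least one. The motif CCAAT, the letters bound by NF-Y, was in windows of 3 genes (E2f3, E2f7 and E2f8), against 33.8% of all windows. TTTGAA, the core letters of the cell-cycle element called CHR, was in windows of 2 (E2f3 and E2f8), against 16.0%. These counts are of genes with a match in any of their windows, while the percentages are of single windows, so they are not like for like. The E2f1 window and the second Tfdp1 window overlap annotated exons of those genes. Matches of letters are a description of the windows, not of binding.

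The deposited counts of Tfdp2 were 1187, 833 and 1088 in IL-33 libraries, against 479, 358 and 502 in untreated libraries. Scaled to library size with TMM factors, that was 27.0, 24.5 and 24.6 CPM with IL-33, against 10.7, 8.65 and 11.1 CPM without. Every IL-33 library was above every untreated one. The groups of 13.7% of all tested genes did not overlap either, and Tfdp2 was picked from this same contrast. The means were 25.4 ± 1.42 CPM with IL-33 and 10.1 ± 1.31 CPM in untreated cells (SD, n = 3 each), a log2 fold change of 1.32. At the depth of these libraries a transcript at 0 could hold up to 3 fragments, or 12 deposited counts, per library, and such floors cover counting error only. In bulk RNA, fewer cells of a type and less RNA per cell cannot be told apart.

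**Figure D1:**
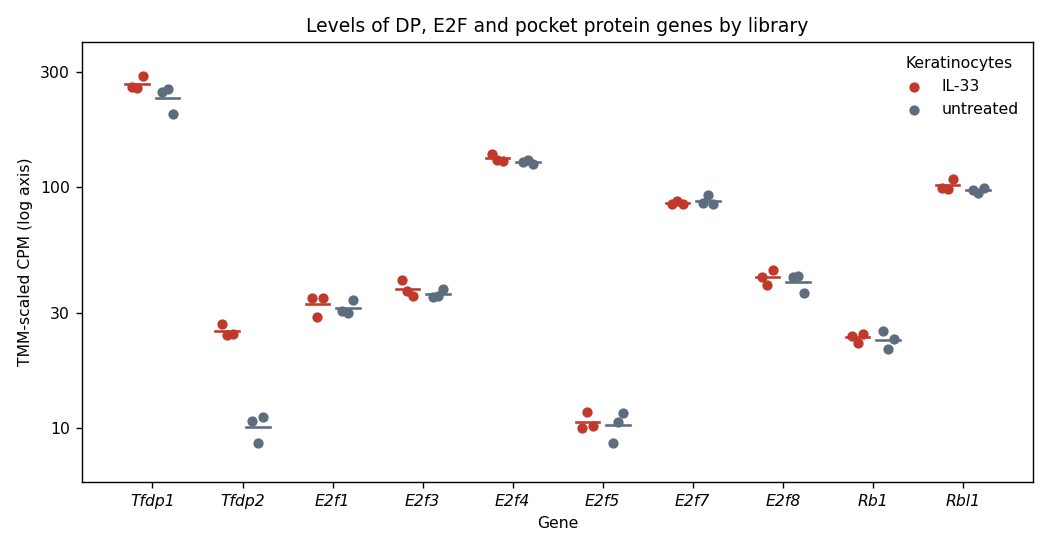
Levels of the 10 genes in each library, as TMM-scaled CPM on a log axis. Red points are IL-33 libraries and grey points untreated libraries, and the short line is the group mean. Tfdp2 stands at 24.5 to 27.0 CPM with IL-33 and 8.65 to 11.1 CPM without, while of the other 9 genes the groups of Tfdp1 alone do not overlap.

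Tfdp1, which encodes the other DP protein, had 259.8, 258.9 and 289.1 CPM in IL-33 libraries, against 248.2, 256.9 and 201.4 CPM in untreated libraries. All 3 IL-33 values were above the untreated ones, with IL-33 replicate 2 close to untreated replicate 2, and untreated replicate 3 was the lowest. Its log2 fold change was 0.19 (95% interval -0.03 to 0.42), and the adjusted p was 0.763 in edgeR's quasi-likelihood test with Benjamini-Hochberg adjustment over all genes.

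Tfdp2 was the minor DP gene in both groups. On the deposited FPKM scale (fragments per kilobase of gene, scaled to depth), Tfdp1 averaged 66.0 ± 4.07 with IL-33 and 57.7 ± 7.23 in untreated cells, and Tfdp2 averaged 1.62 ± 0.0938 with IL-33 and 0.644 ± 0.0868 without (SD, n = 3 each). Tfdp2 made up 2.63%, 2.40% and 2.17% of the summed FPKM of both DP genes in IL-33 libraries, against 1.11%, 0.860% and 1.41% in untreated libraries. When the FPKM of all annotated transcripts of a gene were summed instead, the share was 4.77%, 3.82% and 3.91% with IL-33, against 4.05%, 2.74% and 3.40% without, and the groups overlapped. On both scales Tfdp1 supplied the bulk of DP transcripts in every library.

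Outside Tfdp2, 0 of the 9 genes passed an adjusted p of 0.05 in edgeR, DESeq2 or limma-voom, and 0 had an unadjusted edgeR p under 0.05. Over all genes tested edgeR called 11, or 0.0697%, with 0.0444% higher and 0.0254% lower, and 6.74% had an unadjusted p under 0.05. The groups of 1 of the 9 did not overlap, Tfdp1, against 13.7% of all tested genes. Their log2 fold changes ran from -0.03 for E2f7 to 0.19 for Tfdp1, with a median of 0.05 beside 0.00175 over all tested genes, and 8 of 9 (88.9%) were above 0, against 50.5% of all tested genes. The counts called and not overlapping were near the background and are not a result about these genes.

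E2f1 and E2f3 encode activator E2Fs. E2f1 had 34.6, 28.8 and 34.6 CPM with IL-33, against 30.6, 30.1 and 34.1 CPM in untreated cells. E2f3 had 41.2, 37.1 and 35.2 CPM with IL-33, against 35.0, 35.4 and 37.7 CPM in untreated cells. Both genes overlapped between the groups. The 95% intervals of the fold change were 0.892 to 1.20 for E2f1 and 0.925 to 1.19 for E2f3.

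E2f4 and E2f5 encode E2Fs that work with pocket proteins to keep target genes off in resting cells. E2f4 had 137.0, 130.4 and 128.6 CPM with IL-33, against 127.1, 130.0 and 124.7 CPM in untreated cells. E2f5 had 10.1, 11.7 and 10.2 CPM with IL-33, against 8.67, 10.6 and 11.5 CPM without. The groups overlapped for both, with fold intervals of 0.963 to 1.12 for E2f4 and 0.832 to 1.29 for E2f5. E2f5 overlaps 1810022K09Rik, a gene on the opposite strand that reached 32.3 CPM, more than E2f5 itself. The counts of E2f5 are therefore uncertain where reads could be split.

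E2f7 and E2f8 encode the repressors that bind without a DP partner. E2f7 had 85.2, 87.7 and 85.6 CPM with IL-33, against 86.2, 93.0 and 85.0 CPM in untreated cells. E2f8 had 42.3, 39.2 and 45.3 CPM with IL-33, against 42.5, 42.7 and 36.4 CPM in untreated cells. Both overlapped, with fold intervals of 0.895 to 1.07 for E2f7 and 0.911 to 1.20 for E2f8.

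Of the pocket protein genes, Rb1 encodes the retinoblastoma protein and Rbl1 encodes p107. Rb1 had 24.2, 22.6 and 24.6 CPM with IL-33, against 25.3, 21.2 and 23.4 CPM in untreated cells. Rbl1 had 98.9, 98.3 and 108.1 CPM with IL-33, against 97.7, 94.5 and 99.4 CPM without. Neither separated the groups, and the 95% intervals of the log2 fold change were -0.18 to 0.24 for Rb1 and -0.06 to 0.20 for Rbl1. Rb1 overlaps 4 annotated genes, 2 of them on its own strand. The highest of the 4 reached 29.5 CPM, above Rb1, so the counts of Rb1 are also uncertain where reads could be split.

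**Figure D2:**
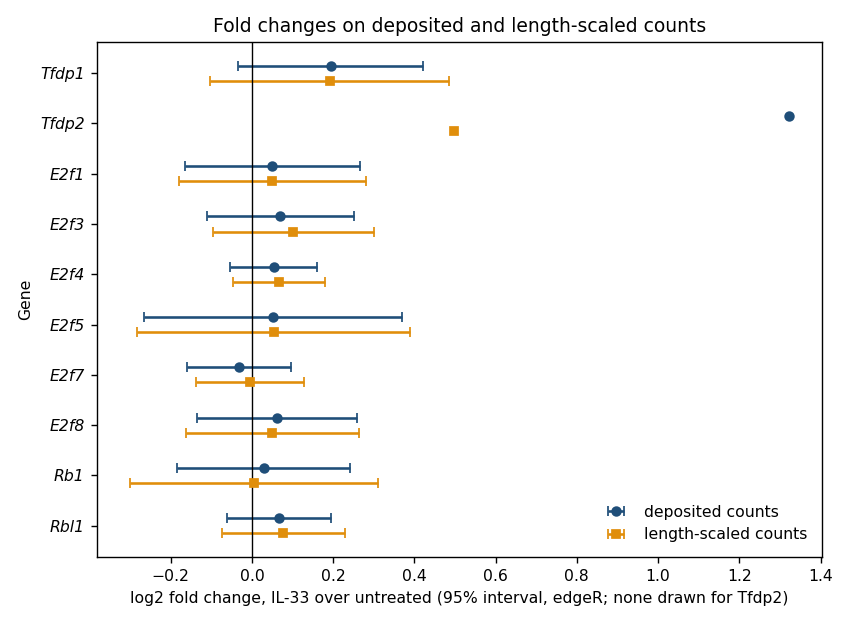
Log2 fold change of each gene, IL-33 over untreated, with 95% intervals from edgeR for all but Tfdp2, which is described without a test. Blue circles are the deposited counts and orange squares the length-scaled counts, in which transcript FPKM are summed per gene before conversion to counts. Tfdp2 stands at 1.32 on deposited counts and 0.50 on length-scaled counts, while each other gene lies between -0.03 and 0.19 on both.

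Ordered by mean gene FPKM, the sequence was the same in both groups: Tfdp1, E2f4, Rbl1, E2f1, E2f7, E2f8, E2f3, E2f5, Rb1 and Tfdp2. Tfdp1 at 66.0 FPKM and E2f4 at 48.4 ± 1.72 FPKM led with IL-33, as they did in untreated cells at 57.7 and 46.7 ± 0.866 FPKM. Rbl1 came next at 15.3 ± 0.797 FPKM with IL-33 and 14.6 ± 0.407 FPKM without. E2f1 and E2f7 overlapped each other in both groups, as did E2f8 with E2f3 and E2f3 with E2f5. Rb1 had 3.55 ± 0.159 FPKM with IL-33 and 3.48 ± 0.311 FPKM without, and Tfdp2 was last by this measure in every library. For these 10 genes the deposited FPKM matched the count over the length of all annotated exons together, to within 1.53% in every library, so genes with many long alternative exons sit lower on this scale than on the summed transcript scale. On that second scale Tfdp2 averaged 5.73 FPKM with IL-33 and 4.07 FPKM in untreated cells. E2f5 stood beside it at 5.38 ± 0.469 FPKM with IL-33 and 5.18 ± 0.743 FPKM without, so the order of this pair differed between the groups. Rb1 averaged 14.5 ± 2.14 FPKM with IL-33 and 14.5 ± 1.71 FPKM without on that scale, above E2f1 at 10.7 and 10.4 FPKM. The order given above therefore holds for the gene FPKM only.

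The transcript table showed where the Tfdp2 counts lay. Tfdp2-201, the longest annotated form at 7354 bases, held 796, 642 and 884 deposited counts in IL-33 libraries, against 23, 41 and 229 in untreated libraries. That is 18.3, 18.8 and 20.2 CPM with IL-33, against 0.517, 0.999 and 5.10 CPM without. The groups did not overlap, as for 11.3% of all tested transcripts, and untreated replicate 3 stood well above the other untreated libraries. The means, 19.1 ± 0.995 CPM with IL-33 and 2.21 ± 2.52 CPM without (SD, n = 3 each), stood in a ratio of 8.65. The fitted log2 fold change was 3.11, and it was 4.65 without untreated replicate 3.

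The other 15 Tfdp2 transcripts together had 391, 191 and 204 counts with IL-33, against 456, 317 and 273 without. As CPM that was 8.99, 5.58 and 4.66 with IL-33, against 10.2, 7.72 and 6.08 in untreated cells, a ratio of means of 0.800 with overlapping groups. As the deposited table assigns them, Tfdp2-201 was higher with IL-33 while the sum of the other forms was not. Among those others, Tfdp2-205, Tfdp2-208, Tfdp2-207 and Tfdp2-214 were each higher in every IL-33 library than in any untreated one. Tfdp2-207 and Tfdp2-214 were too low to be tested. The share of the gene's counts on Tfdp2-201 was 67.1%, 77.1% and 81.3% with IL-33, against 4.80%, 11.5% and 45.6% without, a difference of 54.5 percentage points between the means. Among 11410 genes with at least 2 transcripts, 96 (0.841%) had a shift in their most shifted transcript at least as large, and 69 of those 96 did not overlap between the groups. The median shift was 3.98 points.

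**Figure D3:**
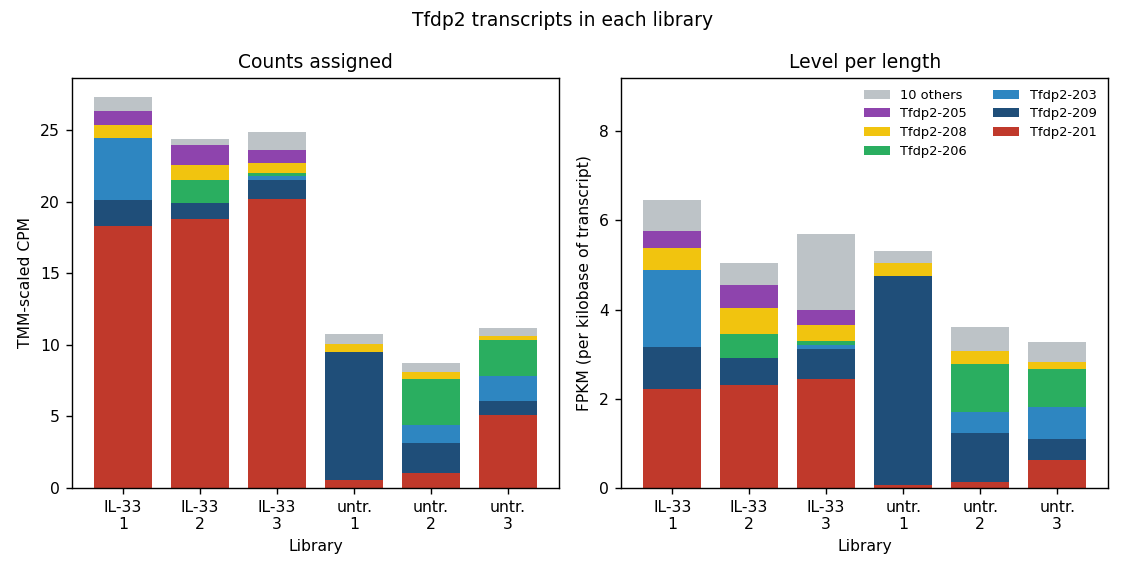
Tfdp2 transcripts in each library, with IL-33 libraries left and untreated libraries right. The left panel stacks the counts assigned to each transcript as TMM-scaled CPM, and the right panel stacks the same transcripts as FPKM, per kilobase of transcript. Tfdp2-201 (red) takes 18.3 to 20.2 CPM of the IL-33 libraries and 0.517 to 5.10 CPM of the untreated libraries. The whole bars do not overlap between groups on the left and do on the right.

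The transcripts differ most in length at the 3′ end. The last exon of Tfdp2-201 is 5859 bases, 79.7% of the transcript, of which 5678 bases, the stop codon included, lie beyond the coding part, whereas the last exon of each other multi-exon form is at most 1297 bases. Both transcripts with a single exon, Tfdp2-213 and Tfdp2-216, are retained introns and held under 0.1 CPM in every library. The polyadenylation letters AATAAA were found in the last 50 bases of Tfdp2-201, 19 bases from its end, and of the noncoding Tfdp2-214, and in none of the other 14 forms. They were in the last 50 bases of 40.5% of the 58797 protein-coding transcripts of GENCODE M21.

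**Figure D4:**
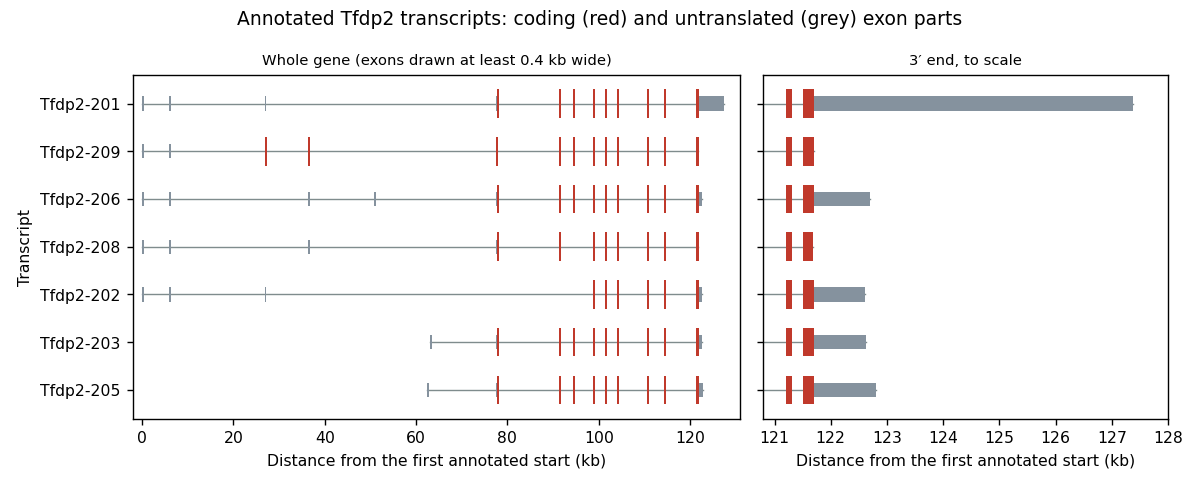
The 7 tested Tfdp2 transcripts drawn by distance in kb from the first annotated start, with coding parts of exons in red and untranslated parts in grey. The left panel shows the whole gene and the right panel the 3′ end to scale, where the last exon of Tfdp2-201 is 5859 bases long and the longest of the others is 1297 bases.

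A longer transcript yields more fragments for each molecule, so levels are also given per length. The mean length of a Tfdp2 transcript, weighted by FPKM, was 3738, 4334 and 3857 bases in IL-33 libraries, against 1803, 2113 and 3026 bases in untreated libraries, with no overlap. The log2 ratio of the group means was 0.78, and 37 of 15245 genes (0.243%) had one as large in either direction. Among the other 9 genes the ratio of means was within 0.05 of 0 on the log2 scale. Per length, the summed transcript level of Tfdp2 was 6.47, 5.04 and 5.69 FPKM with IL-33, against 5.31, 3.62 and 3.27 FPKM without. IL-33 replicate 2 was below untreated replicate 1 on this scale, so the groups overlapped, and the means of 5.73 ± 0.713 FPKM with IL-33 and 4.07 ± 1.09 FPKM without (SD, n = 3 each) stood in a ratio of 1.41. On counts rebuilt from these lengths, an alternative chosen after the values were seen, the log2 fold change of Tfdp2 was 0.50. Of all genes, 4 passed the threshold there (0.0255%), and all 4 were among the 11 called on deposited counts.

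The remaining forms varied widely within groups. Tfdp2-209, which shares the upstream start and ends at the stop codon, had 80, 40 and 57 counts with IL-33, against 400, 88 and 42 in untreated cells. It held 83.5% of the gene's counts in untreated replicate 1 and 8.37% in untreated replicate 3. Tfdp2-206 had 1, 53 and 11 counts with IL-33, against 0, 133 and 115 without. The groups overlapped for both, with 1 untreated library far above the others for Tfdp2-209 and 1 untreated library at 0 for Tfdp2-206. Tfdp2-203, from the inner start, had 187, 0 and 12 counts with IL-33, against 0, 50 and 79 without.

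Tfdp2-205, also from the inner start, had 1.03, 1.43 and 0.891 CPM with IL-33 and was at 0 in all 3 untreated libraries. Its mean with IL-33, 1.12 CPM, was 4.08 times the mean floor of 12 counts per untreated library, 0.275 CPM. That floor covers counting error and not the assignment of counts between forms, so the difference could be smaller. Tfdp2-208 had 0.873, 1.05 and 0.663 CPM with IL-33, against 0.517, 0.512 and 0.267 CPM without, and did not overlap. Tfdp2-202 had 0.460, 0 and 0.206 CPM with IL-33, against 0.652, 0.292 and 0.290 CPM without. These 3 forms were within a few fragments of the floor in several libraries. Short forms weigh more per count on the FPKM scale. In IL-33 replicate 3 the 449-base Tfdp2-214 and the 615-base Tfdp2-210 held 21 and 20 counts, which were 0.930 and 0.637 of the 5.69 FPKM there. None of the 9 untested forms reached 0.5 CPM in any library, and Tfdp2-211 and Tfdp2-212 were at 0 in all 6.

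By start site, the 7 upstream forms summed to 21.7, 22.8 and 23.6 CPM with IL-33, against 10.7, 7.33 and 9.32 CPM without. The 6 inner forms summed to 5.49, 1.46 and 1.19 CPM with IL-33, against 0, 1.22 and 1.78 CPM without. In CPM the upstream forms, which include Tfdp2-201, separated the groups and the inner forms overlapped. Per length the upstream forms overlapped as well, at 4.20, 4.48 and 5.19 FPKM with IL-33, against 5.29, 2.99 and 2.53 FPKM without. Without Tfdp2-201 the upstream forms had 3.40, 4.00 and 3.36 CPM with IL-33, against 10.2, 6.33 and 4.21 CPM in untreated cells. These CPM were lower with IL-33 and did not overlap, by 4.00 against 4.21 at the nearest. In untreated replicate 1, Tfdp2-209 alone held 8.99 of the 10.2 CPM. Per length the same forms overlapped, at 1.98, 2.18 and 2.75 FPKM with IL-33, against 5.23, 2.87 and 1.91 FPKM without.

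The forms also differ by a 48-base coding exon of 16 codons, exon 6 of Tfdp2-201 (GRCm38, chr9:96290580-96290627). Alternative splicing of mouse DP-3, an older name of the product of this gene, is known to add or omit a short stretch that contributes to its nuclear localization signal. The spliced sequence around the exon, from GENCODE M21, is printed for a form that keeps it and one that skips it, with the exon in capitals.
Tfdp2-201: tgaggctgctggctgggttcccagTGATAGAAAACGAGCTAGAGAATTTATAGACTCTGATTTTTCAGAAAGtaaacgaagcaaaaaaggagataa
Tfdp2-208: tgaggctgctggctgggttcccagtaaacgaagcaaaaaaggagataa

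Forms that keep this exon summed to 25.5, 22.9 and 23.4 CPM with IL-33, against 9.51, 7.60 and 10.4 CPM in untreated cells. Forms that span its place but lack it, called skipping forms here, summed to 1.47, 1.08 and 0.891 CPM with IL-33, against 1.17, 0.804 and 0.557 CPM without. Not all of them are like Tfdp2-208. Tfdp2-202 and Tfdp2-207 also lack the exon before it, and the annotated coding part of Tfdp2-202 begins beyond it. Tfdp2-202 held 0.460, 0 and 0.206 of these CPM with IL-33, and 0.652, 0.292 and 0.290 without. Keeping forms, which include Tfdp2-201, carried most of the counts in every library. In CPM they separated the groups, and skipping forms overlapped. Summed per length, keeping forms overlapped as well, at 5.28, 3.97 and 4.26 FPKM with IL-33, against 4.75, 2.79 and 2.67 FPKM without. Per length, keeping forms held 81.6%, 78.7% and 74.8% of the summed Tfdp2 FPKM with IL-33, against 89.5%, 77.1% and 81.6% without, and these shares overlapped.

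For the other 9 genes, 0 of 26 tested transcripts were called by edgeR and 0 had an unadjusted p under 0.05, where edgeR called 0.0299% of 40163 transcripts and 4.24% had an unadjusted p under 0.05. DESeq2 and limma-voom also called 0, where they called 0.954% and 0.0124% of all transcripts. Assignment between similar forms varied widely within groups here too. E2f8-201 had 1115, 895 and 1363 counts with IL-33, against 1354, 174 and 923 in untreated cells, while E2f8-202, which differs little in length at 3499 against 3691 bases, had 737, 433 and 633 with IL-33 and 540, 1591 and 720 without. In untreated replicate 2 the order of these forms was turned round, although the E2f8 gene total there was 42.7 CPM. E2f3-201 took 15.5%, 59.7% and 8.61% of the E2f3 counts with IL-33, against 33.6%, 51.4% and 58.5% without. E2f3-203 took 20.8%, 21.6% and 50.5% with IL-33, against 30.6%, 25.1% and 23.2% without, and E2f3-204 took 63.7%, 18.7% and 40.9% with IL-33, against 35.8%, 23.5% and 18.3% without. E2f1-201 and E2f1-202 split the E2f1 counts, with E2f1-202 at 51.7%, 69.5% and 47.6% with IL-33, against 58.3%, 49.6% and 44.8% in untreated cells.

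The remaining genes were carried mainly by one form. E2f4-201 held 98.0% to 99.7% of E2f4 counts with IL-33 and 98.9% to 99.9% without, and Rbl1-201 held 91.3% to 92.9% with IL-33 and 91.8% to 94.9% without. E2f7-201 held 90.1% to 92.5% with IL-33 and 91.1% to 93.9% without. E2f5-201 held 100% in IL-33 replicates 1 and 3 and 78.1% in IL-33 replicate 2, against 99.7% to 100% in untreated cells. Rb1-201 held 72.3% to 84.1% with IL-33 and 74.7% to 81.9% without, beside the short noncoding Rb1-206. Tfdp1-201 held 73.8% to 81.5% with IL-33 and 60.3% to 86.7% without. The largest shift of a form's share among the 9 genes was -19.9 points, for E2f3-201, and it overlapped between the groups.

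Of the genes on either side of Tfdp2, Gk5, a member of the glycerol kinase family, had 13.6, 14.9 and 16.7 CPM with IL-33, against 13.6, 11.4 and 13.95 CPM in untreated cells. Atp1b3, which encodes a beta subunit of the sodium pump, had 157.7, 157.3 and 159.8 CPM with IL-33, against 159.2, 151.9 and 167.4 CPM without. Neither passed edgeR's test, with adjusted p = 0.780 and 0.978. Both annotated genes inside Tfdp2, Gm37195 and Gm28924, were at 0 in every library, so no counts were assigned to either. Whether reads from them were counted to Tfdp2 cannot be told from these values.

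The lists of genes that act with or under E2F were described next, beside the shares of all tested genes. Of all genes, 50.5% were above 0, 6.74% had an unadjusted edgeR p under 0.05 and 13.7% did not overlap between the groups. DESeq2, which called more genes than edgeR, called 71 of 16171 (0.439%) and limma-voom 5 of 15778 (0.0317%). Among 12 further E2F and MuvB partners, 0 were called by edgeR, DESeq2 or limma-voom, 2 had an unadjusted edgeR p under 0.05 (16.7%, against 6.74% of all), 8 were above 0 (66.7%, against 50.5%) and the median log2 fold change was 0.05. Foxm1, a factor that drives mitotic genes, averaged 124.4 ± 0.611 CPM with IL-33 and 112.4 ± 2.30 CPM in untreated cells (SD, n = 3 each), a log2 fold change of 0.15 with an edgeR adjusted p of 0.660. E2f2, the activator E2F outside the 10 genes, averaged 7.84 ± 0.744 CPM with IL-33 and 5.89 ± 1.08 CPM without. Mybl2, which joins MuvB at the start of division, averaged 106.4 ± 2.98 CPM with IL-33 and 101.9 ± 1.90 CPM without. Lin37, a MuvB subunit, averaged 16.7 ± 1.09 CPM with IL-33 and 14.5 ± 0.755 CPM without. In these 4 genes of the 12 (33.3%, against 13.7% of all) the groups did not overlap, and none passed the adjusted threshold.

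Of 16 G1 cyclins, kinases and kinase inhibitors, which set the phosphorylation of pocket proteins, 15 were tested and Cdkn2a was too low. edgeR and limma-voom called 0 of them, DESeq2 called 1, Cdk2, where it called 0.439% of all genes. An unadjusted edgeR p under 0.05 was found for 3 (20.0%, against 6.74% of all), and 8 were above 0 (53.3%, against 50.5%) with a median log2 fold change of 0.04. The groups of 3 (20.0%, against 13.7% of all) did not overlap. Cdk2, the kinase partner of cyclin E, had 70.5, 47.9 and 52.4 CPM with IL-33, against 77.4, 76.1 and 82.7 CPM in untreated cells. All IL-33 values were lower and IL-33 replicate 1 was nearest to the untreated ones, with a log2 fold change of -0.47 and an edgeR adjusted p of 0.676. Ccnd2, a D-type cyclin, averaged 790.0 ± 28.7 CPM with IL-33 and 734.3 ± 7.43 CPM without. Cdkn1b, which encodes the inhibitor p27, averaged 18.8 ± 0.775 CPM with IL-33 and 21.8 ± 1.76 CPM without, while cyclin gene Ccne2 overlapped at 23.7 ± 5.81 CPM with IL-33 and 26.8 ± 2.27 CPM without.

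All 46 listed G1/S target genes of E2F, which act in DNA replication and repair, were tested. None was called by edgeR, DESeq2 or limma-voom, 3 had an unadjusted edgeR p under 0.05 (6.52%, against 6.74% of all), 34 were above 0 (73.9%, against 50.5%) and the median log2 fold change was 0.04. Chaf1a, a subunit of the chromatin assembly factor, averaged 160.8 ± 4.28 CPM with IL-33 and 141.2 ± 7.12 CPM in untreated cells, with a log2 fold change of 0.19 and an edgeR adjusted p of 0.575. Mcm7 and Mcm2, subunits of the replicative helicase, had log2 fold changes of 0.14 and 0.12. Fen1, the flap endonuclease of replication, was singled out after its values were seen. It had 119.3, 115.6 and 122.0 CPM with IL-33, against 29.6, 39.7 and 109.7 CPM in untreated cells. Untreated replicate 3 stood near the IL-33 libraries, and the 95% interval of its log2 fold change of 0.99 ran from -0.57 to 2.56.

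Among 36 G2/M target genes of the DREAM and MYB-MuvB complexes, 32 were above 0 (88.9%, against 50.5% of all tested genes) and the median log2 fold change was 0.10. edgeR and limma-voom called 0 and DESeq2 called 2, Mki67 and Cenpe, where it called 0.439% of all genes. An unadjusted edgeR p under 0.05 was found for 10 of 36 (27.8%), against 6.74% of all tested genes, and the groups of 11 (30.6%) did not overlap, against 13.7%. Cenpe, a kinetochore motor, had 58.9, 58.9 and 62.0 CPM with IL-33, against 41.2, 47.8 and 49.0 CPM in untreated cells, a log2 fold change of 0.38 with an edgeR adjusted p of 0.307. Mki67, the proliferation marker Ki-67, averaged 246.3 ± 2.39 CPM with IL-33 and 205.0 ± 16.2 CPM without, a log2 fold change of 0.26 with an edgeR adjusted p of 0.319. Tpx2, a spindle assembly factor, and Bub1b, a checkpoint kinase, each had a log2 fold change of 0.19.

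Of 9 apoptosis genes described as E2F targets, edgeR and limma-voom called 0, DESeq2 called 1, Bcl2l11, where it called 0.439% of all genes, and 6 were above 0 (66.7%, against 50.5%) with a median of 0.09. Bcl2l11, which encodes the death-promoting protein BIM, had 6.57, 8.63 and 7.43 CPM with IL-33, against 13.6, 17.4 and 13.9 CPM in untreated cells. The groups did not overlap, and the log2 fold change was -0.99 with an edgeR adjusted p of 0.0768. It was the only gene of the 9 with an unadjusted edgeR p under 0.05 (11.1%, against 6.74% of all). No other gene of the 9 had groups that did not overlap (11.1%, against 13.7% of all). The list was chosen with earlier results of these data known, so nothing is read from the call. Bid and Casp8 overlapped between the groups, with log2 fold changes of 0.16 and 0.09.

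**Figure D5:**
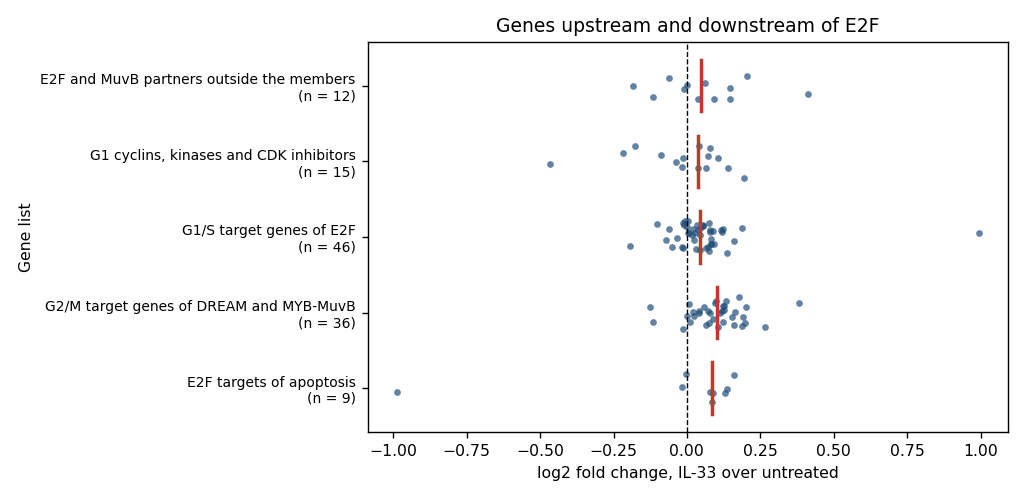
Log2 fold changes, IL-33 over untreated, of the genes in each list. Points are genes and red lines the list medians, which run from 0.04 to 0.10. The points farthest from 0 are Fen1 at 0.99 in the G1/S list and Bcl2l11 at -0.99 in the apoptosis list.

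Likeness to Tfdp2 was measured by Pearson's r of log2 CPM over the 6 libraries. It was ranked among 10990 genes whose log2 CPM averaged 1 or more, with genes of Gm or Rik names left out. It is a description in which the group difference and library depth are shared by all points. The most alike were Fzr1, an activator of the anaphase-promoting complex, at 0.998, the chromatin remodelling subunit Pbrm1 at 0.994, the citrate synthase gene Cs at 0.991, Parp12 at 0.988 and Haghl at 0.987. Fzr1 itself averaged 87.5 CPM with IL-33 and 74.4 CPM in untreated cells, a far smaller difference than that of Tfdp2. The least alike were Fam98a at -0.994, the minor spliceosome gene Rnpc3 at -0.993 and Bcl2l11 at -0.984. Among the other 9 genes of the pathway r ran from -0.50 for E2f7 to 0.60 for E2f4, so none followed Tfdp2 as closely over these libraries.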

How the data were processed

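RNA-seq libraries of mouse primary keratinocytes, 3 with IL-33 and 3 untreated, were compared. Per the submitters' processing notes, the build was mm10 and the tools were HISAT2 2.1.0, StringTie 1.3.4d, DESeq2 1.18.1 and FastQC 0.11.7, with no word on which step each served. The labels do not name their annotation release. The authors deposited estimated counts and FPKM per gene and per transcript, as the file headers show. These deposited counts are estimated, yet every value is whole and none was rounded here. Transcript counts above 1000 were within 1% of a constant times FPKM and exon length, and lower ones need not be. Low values pile up at 4 and less so at 2 and 8 (1524, 780 and 769 values in IL-33 replicate 1). A value of 4 was taken as 1 fragment, which is an estimate. The deposited FPKM values are per kilobase and scaled to depth.

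Genes were tested with edgeR 4.0.16 (R 4.3.3; quasi-likelihood, robust, TMM, filterByExpr at a minimum count of 10), IL-33 against untreated, with Benjamini-Hochberg adjustment over 15778 genes and a threshold of 0.05. The same fit was run on 40163 transcripts. The procedure was tested on simulated data with known changes, drawn with the means and dispersions fitted here. Changes were put only into features with higher counts. The simulation therefore does not cover transcripts with low counts or the assignment of counts between forms. CPM are TMM-scaled, and standard errors and 95% intervals are on the log2 scale unless called fold intervals. Length-scaled counts are the summed transcript FPKM of a gene times its mean transcript length over 6 libraries, scaled to the library total. They were chosen after the data had been seen.

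Of 52550 gene identifiers, 52403 matched a symbol, and 97.2% of 131146 transcript identifiers are in GENCODE M21 (GRCm38, also called mm10) with the same version, a release that may differ from the authors' own. Promoter windows are from RefSeq (GRCm38.p6).

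The members and all gene lists were chosen with earlier results of these data known. By rule the text names all members, every Tfdp2 transcript that was tested, each transcript with at least 10% of another member's counts, up to 4 genes per list with the smallest p, the genes overlapping or next to Tfdp2, and the 5 most and 3 least alike in log2 CPM, predicted genes left out; the values of 2 listed genes are not reported here. Alternatives were other scaling factors, other filters, DESeq2 1.42.0, limma-voom (limma 3.58.1), limma on log2(FPKM + 0.1) and log2(FPKM + 1), the replicate number as a block, counts divided by 4, each library left out, and other thresholds. Pairs of libraries of a group differed by 2.02 to 2.74 times the sampling value in a median chi-square over genes, so no library was taken as a copy.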

Additional observations from a re-analysis of the deposited data

How the results depend on the processing

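The count of 11 genes called was 17 without a filter, 71 with DESeq2, 5 with limma-voom, 4 with limma on log2(FPKM + 0.1), 4 on log2(FPKM + 1), 4 on log2(FPKM + 0.1) without a filter, 4 on length-scaled counts and 6 at a threshold of 0.01, and it ran from 11 to 90 when single libraries were left out, with 90 when IL-33 replicate 3 was dropped, 20 for IL-33 replicate 1 and 18 for untreated replicate 3. The count of 12 transcripts called was 539 with DESeq2, 5 with limma-voom, 33 on log2(FPKM + 0.1), 25 on the same scale without a filter and 7 at a threshold of 0.01, and it ran from 6 to 28 when single libraries were left out (28 for IL-33 replicate 3, 7 for IL-33 replicate 1 and 6 for untreated replicate 2). With the replicate number as a block, 8 genes and 0 transcripts were called. Samples with the same number deviated together only weakly (r = 0.07, 0.09 and 0.02 over 12020 genes), the third IL-33 library correlated best with untreated replicate 1, and no label states a pairing, so the numbers were not taken to pair the libraries. The cause of these differences was not tested.

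Of the 10 genes described, 1, Tfdp2, was among the 11 called, which its choice from this contrast fixed, so nothing is read from the call. That count was 0 on log2(FPKM + 0.1), 0 on log2(FPKM + 1), 0 on log2(FPKM + 0.1) without a filter and 0 on length-scaled counts. The log2 fold change of Tfdp2 was 0.67 on log2(FPKM + 1), where low values are compressed by the pseudocount, 0.50 on length-scaled counts, and 1.21 to 1.39 in the other 17 settings. Single libraries decided the values of some Tfdp2 forms: Tfdp2-203 had a log2 fold change of 0.62 with all libraries and -2.79 without IL-33 replicate 1, and Tfdp2-209 had -1.48 with all libraries and -0.10 without untreated replicate 1. The other 9 members were not called in any of 19 alternatives, with a lowest adjusted p of 0.675. The median of each gene list kept its sign in every alternative except that of the G1 cyclins, kinases and inhibitors, which ran from -0.02 to 0.05. Low counts limit the transcript values of Tfdp2: all its transcripts together held 833 to 1187 deposited counts per library with IL-33 and 358 to 502 without, at about 4 counts per fragment.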
